A study of Mus musculus with 12 samples.

Results

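Bone marrow-derived macrophages that received the BET inhibitor and immune complexes together were compared with macrophages that received only the solvent and soluble antigen, to ask which genes ended above, at or below the baseline when both exposures were combined. The comparison used 6 of the 12 RNA-seq libraries of the series, 3 with both exposures (iBET IC) and 3 at baseline (DMSO Ova), and covered all 11468 genes that passed the filter on low counts. The cells of every group came from wild-type C57BL/6 mice and were differentiated from femur and tibia marrow in medium with 100 ng/mL M-CSF, over 5 days. The iBET IC cultures had I-BET151 (iBET, a small molecule that occupies the bromodomains of BET proteins) at 5.0 µM. They also had IgG immune complexes of ovalbumin (IC) for 4 hours. The DMSO Ova cultures had DMSO without the drug and ovalbumin alone (Ova) for the same time. The labels write DMSO as 5% for all 12 libraries, those with the drug included. The baseline was therefore exposed to solvent and soluble antigen and was not an untreated culture. The remaining 6 libraries had 1 exposure each (iBET Ova and DMSO IC) and are used here to place the combined level between the single exposures. There were 3 mice (A, B and C), and all 4 groups hold 1 library from every mouse. Libraries are called by group and mouse below, so that baseline A is DMSO Ova of mouse A and combined C is iBET IC of mouse C, and likewise drug-only (iBET Ova) and IC-only (DMSO IC). Whether the drug preceded the stimulus is uncertain, because the labels have them together and the study's text has the drug first.

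BET proteins bind acetylated lysines on histones and bring the elongation kinase P-TEFb to promoters and enhancers, and BET inhibitors displace them. Immune complexes crosslink Fc gamma receptors, which signal through Syk and other kinases to NF-kB and MAP kinases and switch on cytokines, chemokines and the inhibitors that end the signal. P-TEFb is held inactive by Hexim1 and the 7SK RNA, and release and resynthesis of these partners is a known response to BET inhibitors.

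Depth in the 6 libraries ran from 7549849 to 17387639 counts. Library baseline A stood apart: Rn45s, the symbol of the ribosomal RNA precursor, took 77.4% of its counts (Wilson 95% interval 77.35% to 77.41%, which covers counting error only), against 1.41% to 4.4% in the other 5. That left 1768133 counts for all other genes, against 7247830 to 16899110 in the other 5 libraries, and the overall counts and the steepest changes are therefore also given without it. The macrophage identity in the labels matched the 12 macrophage markers (Adgre1, Csf1r, Lyz2, Cd68 and others), whose summed level was 7330 to 8600 CPM (counts scaled to a common library size with TMM factors) at baseline and 8700 to 9690 CPM in iBET IC. Of these 12 markers, 3 were called higher and 1, Spi1, lower, where 18.6% of all genes tested were called higher and 15.8% lower. Summed markers of neutrophils and their precursors stood at 10.8 to 55.1 CPM and 17.5 to 45.1 CPM, and those of dendritic cells at 2.15 to 3.48 CPM and 4.94 to 5.87 CPM. Only 2 of the 9 dendritic cell markers passed the filter, and both were called higher. Irf4 made up most of the sum in iBET IC, at 4.16, 2.81 and 3.72 CPM, against 1.03, 1.23 and 1.66 CPM at baseline. Batf3 was at 1.03, 0.383 and 0.995 CPM at baseline and 0.213, 0.581 and 0.12 CPM in iBET IC. Stromal and endothelial markers summed to 22.1 to 23.1 CPM and 14.1 to 24.2 CPM. Most of this was Kdr, at 18.5, 20.3 and 19 CPM at baseline and 15.1, 16.1 and 12.2 CPM in iBET IC. Of these 9 markers 3 were tested, and 1 was called lower. The T and NK cell, B cell, mast cell and erythroid lists each summed to under 5 CPM in all 6 libraries, and Nkg7 and Cpa3 were among their markers with no count in any of the 6. The part of other cells in the results was not tested. In such bulk samples a smaller number of cells of one type and less RNA per cell cannot be told apart.

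The combined exposure moved a large share of the transcriptome away from baseline. Genes were called at an adjusted p under 0.05 (edgeR quasi-likelihood test, Benjamini-Hochberg over all genes tested). A total of 2136 genes (18.6%) were higher in iBET IC and 1814 (15.8%) were lower, and for 3895 of the 3950 the 3 mice differed in the same direction. Large changes were more often downward, with 813 genes at least 2-fold lower and 559 at least 2-fold higher. The counts at 4-fold or more were 175 lower and 104 higher. For 3247 genes (28.3%) the 95% interval of the fold change lay wholly within 1.5-fold of baseline, and 205 of these were also called because their small change was measured precisely. A further 4476 genes were neither called nor bounded in this way. Genes held within 1.5-fold had a median mean count of 537.8, against 255.9 over all genes tested. The held share of a gene list therefore depends also on the counts of its members. The median log2 fold change over all genes was 0.01. TMM scaling itself places this centre near 0, so changes are read relative to it. A general rise or fall in RNA could not be seen. The CPM values of the 2 groups did not overlap for 49.1% of all genes tested, and for 3810 of the 3950 called genes. A call thus nearly implies separate groups and 1 direction in the 3 mice. For called genes both are given below as description and not as further support.

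**Figure D1:**
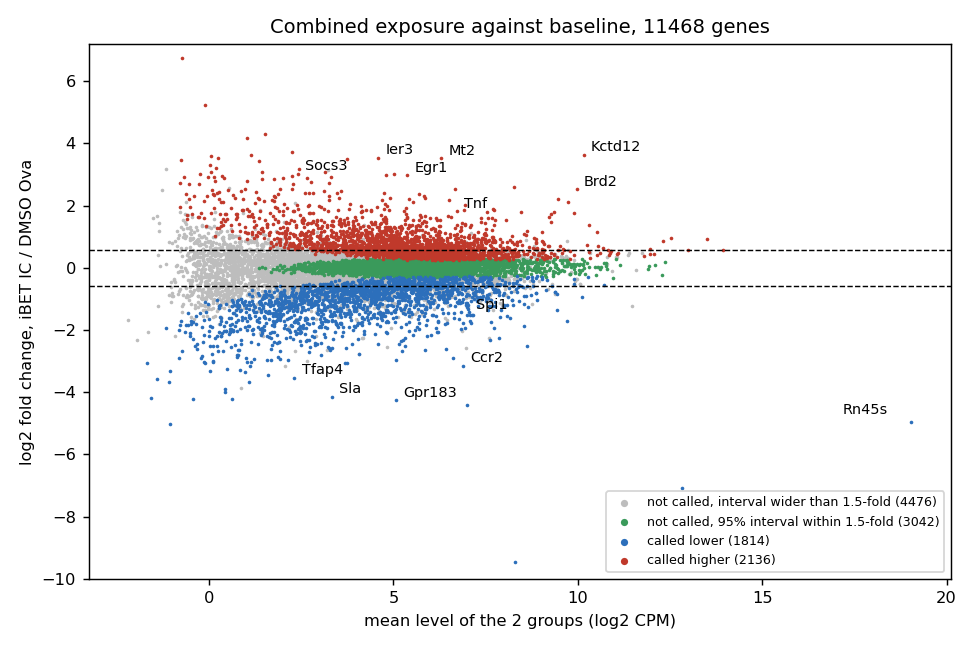
Each point is 1 of 11468 genes, with the mean log2 CPM of the DMSO Ova and iBET IC groups on the horizontal axis and the log2 fold change of iBET IC over DMSO Ova on the vertical axis. Dashed lines mark 1.5-fold. Red points are the 2136 genes called higher, blue points the 1814 called lower, green points the 3042 uncalled genes held within 1.5-fold, and grey points the 4476 others. Kctd12 and Gpr183 lie at the edges of the cloud, and Rn45s at the far right is carried by 1 library.

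Without baseline A the counts were 1758 higher, 1831 lower and 3443 held within 1.5-fold, and 3272 of the 3950 calls were kept, each with the same sign. With Rn45s taken out before scaling they were 2075, 1887 and 3261. Without the 4 libraries of mouse B 813 genes were higher and 702 lower, and without those of mouse C 1245 and 1126. Rn45s itself was at 3110000, 11500 and 25600 CPM at baseline and 26100, 40000 and 36200 CPM in iBET IC in mice A, B and C, so that 1 library set the group's mean. Its fitted fold change of -4.94 on the log2 scale (adjusted p = 0.043) became 0.84 without that library. Lars2 and the miRNA symbol Mir6236, the other abundant symbols at the lower edge of the plot, were chosen after their values were seen. They had log2 fold changes of -7.07 and -9.45, and their differences in mouse A were -8.92 and -11.36, against 1.18 and -0.17 in mouse B. Falls of this size were seen in mouse A alone.

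The shares of genes called against baseline were nearly as large with the drug alone as with both exposures. Against the same baseline, iBET Ova had 17.1% of genes called higher and 14.2% lower, and DMSO IC had 0.732% higher and 0.488% lower. The step from iBET Ova to iBET IC gave calls higher for 0.314% and lower for 0.0349% of genes. That from DMSO IC to iBET IC gave 19% and 15.8%. A step here is a difference between parallel cultures. Neither the labels nor the study's text has the drug given after IC. All of these comparisons share libraries with the combined one, so their counts are set side by side and no overlap is drawn from them.

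The steepest rises above baseline included a regulator of receptor signalling, a metal-binding protein, immediate early genes and a chaperone. Kctd12, an auxiliary subunit of GABA-B receptors, stood at 181, 161 and 173 CPM in the DMSO Ova libraries of mice A, B and C and at 2310, 1980 and 2080 CPM in the iBET IC libraries (log2 fold change 3.63 ± 0.12 SE, adjusted p = 9.71e-09). Every iBET IC library lay more than 10-fold above the highest baseline library. The symbol Mir5130, whose precursor lies inside a Kctd12 exon on the same strand, rose by a similar log2 fold change of 3.50, and reads of the 2 cannot be told apart here. Mt2, a metallothionein that binds zinc and copper, went from 10.8, 12 and 14 CPM to 169, 103 and 162 CPM (log2 fold change 3.53 ± 0.26 SE, adjusted p = 2.23e-06). Ier3, a stress-inducible survival factor and NF-kB target, went from 6.16, 2.99 and 3.73 CPM to 44.9, 43.7 and 42.9 CPM (log2 fold change 3.54 ± 0.20 SE, adjusted p = 2.89e-07). In both genes the lowest combined library was several-fold above the highest baseline library. Without baseline A the log2 fold changes of Kctd12, Mt2 and Ier3 were 3.63, 3.44 and 3.66.

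The other steep rises began from low levels. Hspa1a, an inducible chaperone of the Hsp70 family, was at 8.22, 6.98 and 6.63 CPM at baseline and 67.3, 58.6 and 47 CPM in iBET IC (log2 fold change 3.03 ± 0.17 SE, adjusted p = 2.89e-07). Its neighbour Hspa1b is nearly identical and could share its reads. Egr1, an immediate early zinc finger factor, was at 6.16, 10.2 and 10.1 CPM and 70.2, 77.4 and 75.5 CPM (log2 fold change 2.98 ± 0.20 SE, adjusted p = 8.57e-07). Socs3, the inhibitor of JAK kinases downstream of cytokine receptors, was at 0, 1.15 and 1.58 CPM and 12.2, 10.8 and 6.35 CPM (log2 fold change 3.02 ± 0.41 SE, adjusted p = 0.000151). Neither gene overlapped between the groups. Hspa1a, Egr1 and Socs3 were at 3.04, 2.83 and 2.81 when baseline A was left out. Adarb1, an adenosine deaminase that edits RNA, rose by 3.18 and Arid5a, an RNA-binding protein that stabilises inflammatory mRNAs, by 3.07 on the log2 scale.

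The steepest falls were in migratory receptors, a signalling adaptor and lineage-linked transcription factors. Gpr183, the oxysterol receptor that guides immune cell positioning, was at 69.3, 69.5 and 51.7 CPM at baseline and 2.94, 4.46 and 2.52 CPM in iBET IC (log2 fold change -4.26 ± 0.23 SE, adjusted p = 1.64e-07). Sla, an adaptor that dampens receptor signalling, was at 20, 20.9 and 16.2 CPM and 0.64, 1.55 and 1.2 CPM (log2 fold change -4.14 ± 0.39 SE, adjusted p = 1.17e-05). Ccr2, the receptor that draws monocytes towards Ccl2, was at 242, 210 and 192 CPM and 28.7, 21.4 and 22.1 CPM (log2 fold change -3.15 ± 0.23 SE, adjusted p = 1.87e-06). Its paralogues are close in sequence, and how reads with several alignments were counted is not given in the sources used here. In each of these genes the highest combined library was far below the lowest baseline library. The fit without baseline A put Gpr183, Sla and Ccr2 at -4.24, -4.16 and -3.09.

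Tfap4, a Myc-regulated helix-loop-helix factor, was at 8.22, 9.74 and 9.53 CPM at baseline and 0.854, 0.969 and 0.479 CPM in iBET IC (log2 fold change -3.54 ± 0.25 SE, adjusted p = 1.1e-06). Cx3cr1, the fractalkine receptor of monocytes and resident macrophages, was at 140, 151 and 227 CPM and 19.1, 20.6 and 31.2 CPM (log2 fold change -2.89 ± 0.31 SE, adjusted p = 4.82e-05). Ptpro, a receptor tyrosine phosphatase, was at 65.2, 58.3 and 55.9 CPM and 6.83, 8.14 and 7.79 CPM (log2 fold change -2.98 ± 0.16 SE, adjusted p = 2.14e-07). The groups did not overlap in any of the 3, and Tfap4, Cx3cr1 and Ptpro stood at -3.63, -3.05 and -2.96 without baseline A. Sox4 fell by 3.07 and Cnr2, the cannabinoid receptor of immune cells, by 2.79 on the log2 scale. The symbol Mir5129 was also among the top falls at -3.07, but it shares an exon with Zeb2. Without baseline A it was at -1.52 with the call lost (adjusted p = 0.167), and the call was also lost without each combined library in turn.

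**Figure D2:**
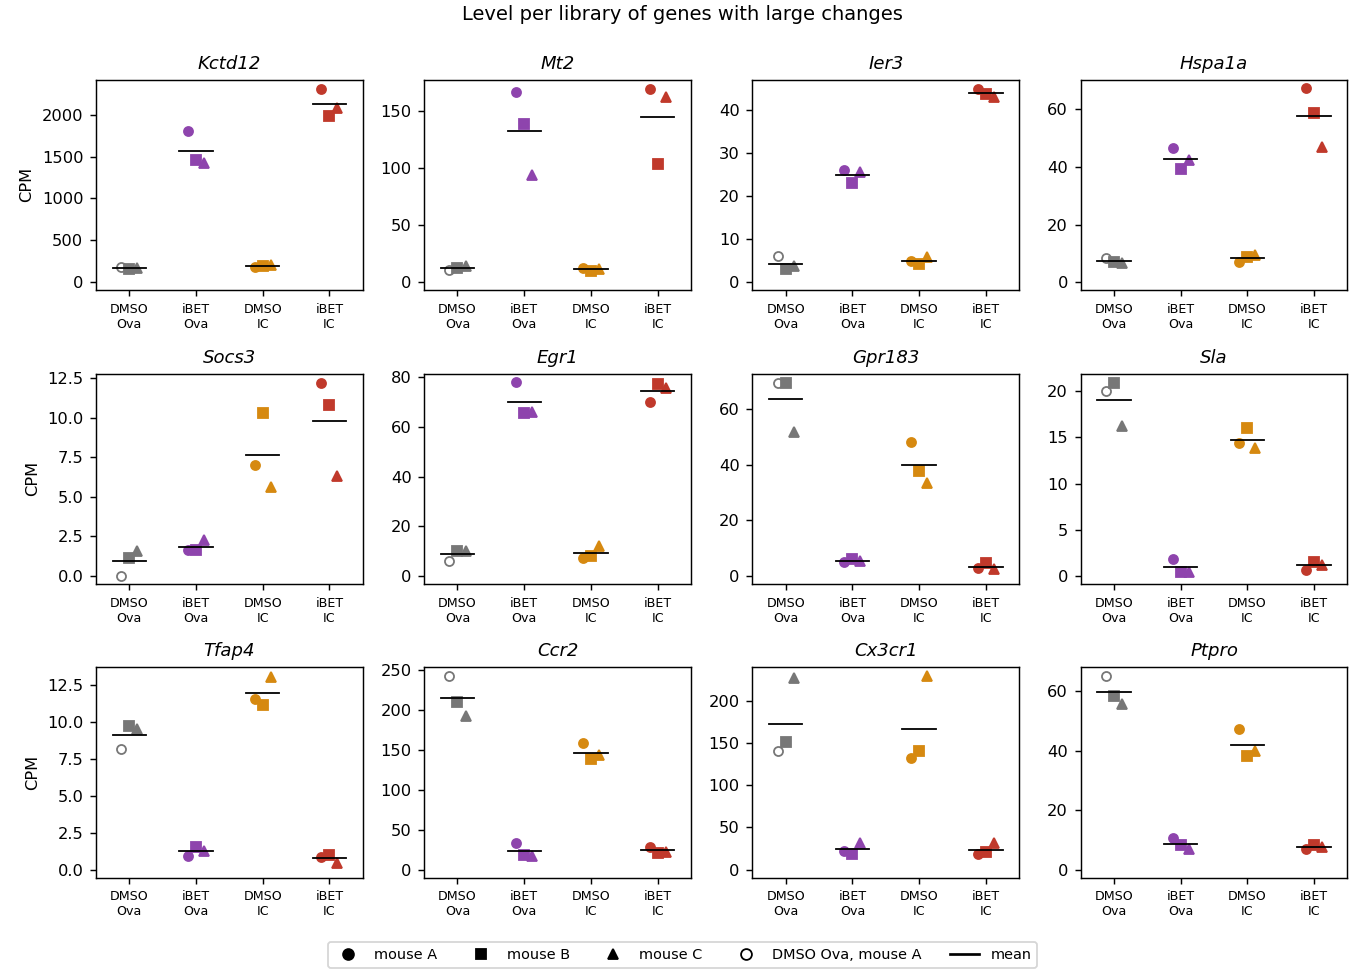
The level in CPM (linear axis) is shown for 12 genes with large changes, in each of the 4 groups, with circles, squares and triangles for mice A, B and C, an open circle for baseline A, and a line at the mean of 3 libraries. Kctd12, Mt2, Ier3, Hspa1a and Egr1 are high in both drug groups, Socs3 is high in both IC groups, and the 6 genes that fell are low in both drug groups.

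These changes were split unequally between the exposures. Kctd12 was 3.19 above baseline with the drug alone and 0.16 with IC alone on the log2 scale, and Mt2 was at 3.40 and -0.18. Egr1 stood at 2.89 with the drug and -0.06 with IC, and Gpr183 at -3.53 and -0.67. Socs3 was the exception among the steep rises, with 0.59 from the drug alone (adjusted p = 0.369) and 2.64 from IC alone (adjusted p = 0.00826). Its mean was 1.84 CPM in iBET Ova and 7.65 CPM in DMSO IC.

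The 150 bases before the RefSeq start (GRCm38.p6) are shown for 4 genes of opposite direction, as the proximal promoters of steep rises and steep falls. Capitals mark matches on either strand to 6 motifs. The E-box was searched as CACGTG and AP-1 as TGANTCA. The TATA box was TATAAA and the CRE was TGACGTCA. PU.1 was searched as GAGGAAGT, and the kappaB motif is given by name. In that order, the motifs were held by 7.15%, 7.81%, 13.6%, 1.79%, 3.2% and 8.46% of all 32851 RefSeq windows of 300 bases. Mt2 (chr8:94172468-94172617, plus strand) and Ier3 (chr17:35821563-35821712, plus strand) rose, and Gpr183 (chr14:121965194-121965343, minus strand) and Ccr2 (chr9:124102033-124102182, plus strand) fell.
Mt2: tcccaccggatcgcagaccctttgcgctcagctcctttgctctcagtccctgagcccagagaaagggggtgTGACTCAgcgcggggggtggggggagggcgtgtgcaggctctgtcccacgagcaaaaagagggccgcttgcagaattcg
Ier3: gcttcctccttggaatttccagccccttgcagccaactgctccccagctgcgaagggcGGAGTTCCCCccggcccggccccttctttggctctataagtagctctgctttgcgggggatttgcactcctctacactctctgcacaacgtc
Gpr183: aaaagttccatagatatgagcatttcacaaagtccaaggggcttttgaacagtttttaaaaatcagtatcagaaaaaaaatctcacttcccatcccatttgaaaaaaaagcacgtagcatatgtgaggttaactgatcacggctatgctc
Ccr2: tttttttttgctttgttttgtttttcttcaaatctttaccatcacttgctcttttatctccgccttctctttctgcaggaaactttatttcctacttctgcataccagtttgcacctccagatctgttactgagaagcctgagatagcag
Mt2 held an AP-1 match 79 bases and Ier3 a kappaB match 92 bases before the start, and the windows of Gpr183 and Ccr2 held none of the 6 motifs. A match is a run of letters and no evidence of binding, and an empty window says only that these letters are absent from it.

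NF-kB regulators and targets ended above baseline more often than below it. Of 36 tested genes for NF-kB subunits, IkB proteins and feedback inhibitors, 15 rose (41.7%, against 18.6% of all genes tested), 2 fell (5.56%, against 15.8%), 15 were held within 1.5-fold (41.7%, against 28.3%), and the median log2 fold change was 0.21, against 0.01 over all genes. Nfkbia, the IkB protein that NF-kB itself induces, was at 79.6, 88.3 and 110 CPM at baseline and 283, 321 and 247 CPM in iBET IC (log2 fold change 1.60 ± 0.14 SE, adjusted p = 5.94e-06). Nfkbie, another inducible IkB protein, was at 41.6, 50.8 and 44.5 CPM and 146, 151 and 132 CPM (log2 fold change 1.63 ± 0.14 SE, adjusted p = 5.67e-06). Tnfaip2, a TNF-induced gene of membrane remodelling, was at 82.7, 87.3 and 93.1 CPM and 304, 365 and 309 CPM (log2 fold change 1.89 ± 0.13 SE, adjusted p = 1.1e-06). The 2 groups were separate in all 3 genes. Nfkbiz, a nuclear IkB protein needed for a subset of secondary NF-kB targets, rose by 1.91. Traf1, an adaptor of TNF receptors, was raised by IC alone by 1.37 and fell by 0.80 with both exposures. Nfkbia, Nfkbie, Tnf, Cxcl2, Irg1, Jag1 and Ikbke had been picked out in the study from these same data, so their values are not independent evidence of a list's direction. The study describes their IC-induced changes as dampened or abrogated by the drug. That statement concerns the IC response and not the combined level against baseline. Whether the IC response differed with the drug was not tested here, and the values were mixed. Cxcl2 rose with IC from 7.7, 9.28 and 10.45 CPM to 36.8, 39.4 and 32.7 CPM. In drug-treated cells Cxcl2 rose from 8.95, 7.39 and 11.3 CPM to 47.9, 50.2 and 29 CPM. Ikbke rose from 28.8, 36.8 and 41.4 CPM to 60, 67.6 and 66.1 CPM. With the drug, Ikbke rose from 22.3, 23.4 and 24.7 CPM to 29.6, 31.2 and 27.2 CPM. Leaving out single libraries gave 11 to 15 members higher, and leaving out mouse B gave 9. The 2 lower members became 4 without baseline A or IC-only A and 1 without baseline B or C, drug-only A or B, or combined A or C.

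Tnf, the lead cytokine of this response, was at 38, 47.3 and 53.6 CPM at baseline and 156, 177 and 165 CPM in iBET IC (log2 fold change 1.82 ± 0.16 SE, adjusted p = 7.1e-06). The single exposures were intermediate, with a mean of 70.6 CPM in iBET Ova and 99.8 CPM in DMSO IC. The combined level was higher than each of them, by 1.23 over the drug alone (adjusted p = 0.00396) and by 0.73 over IC alone (adjusted p = 0.00317). The same order held for Nfkbia (0.94 and 0.47 over the drug and over IC), Nfkbie (0.89 and 0.74) and Tnfaip2 (1.72 and 0.95), each with an adjusted p under 0.05 in both comparisons, which share the iBET IC libraries.

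Of 25 tested cytokines and inflammatory mediators, 9 rose (36%, against 18.6% of all genes) and 7 fell (28%, against 15.8%), with a median of -0.18. Without baseline B 4 were higher. Ptgs2, the inducible prostaglandin synthase, was at 1.03, 3.37 and 4.64 CPM at baseline and 8.33, 10.9 and 10.3 CPM in iBET IC (log2 fold change 1.46 ± 0.41 SE, adjusted p = 0.0161), a call lost without baseline B. Tnfsf9, a costimulatory ligand of the TNF family, rose by 1.49. Irg1, the itaconate-producing enzyme of activated macrophages, was at 3.08, 5.67 and 8.95 CPM and 13.5, 12.5 and 15.3 CPM (log2 fold change 1.07 ± 0.31 SE, adjusted p = 0.018). Its mean was 50.6 CPM with IC alone and 1.44 CPM with the drug alone, so the combined level lay above baseline and below the level with IC alone by 1.88 (adjusted p = 0.000316). The call for Irg1 was lost without baseline B or combined C. Il16, a chemoattractant cytokine, fell from 11.8, 11.8 and 10.7 CPM to 2.08, 1.84 and 1.8 CPM (log2 fold change -2.55 ± 0.23 SE, adjusted p = 6.14e-06). Il15 and Igf1 fell by 0.67 and 0.50, and the call for Igf1 was lost without baseline B or combined C.

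Neutrophil and monocyte chemoattractants were among the chemokines that rose. Of 18 chemokines tested, 6 rose (33.3%, against 18.6% of all genes), 1 fell (5.56%, against 15.8%) and 9 were unresolved, with a median of 0.53. Cxcl2, a neutrophil chemoattractant, was at 7.7, 9.28 and 10.4 CPM at baseline and 47.9, 50.2 and 29 CPM in iBET IC (log2 fold change 2.17 ± 0.22 SE, adjusted p = 1.96e-05). Ccl7, a monocyte chemoattractant, was at 18.5, 14.3 and 24.2 CPM and 121, 71 and 93.6 CPM (log2 fold change 2.33 ± 0.32 SE, adjusted p = 0.000268). Ccl4, a ligand for receptors on monocytes and T cells, was at 3.08, 4.22 and 8.04 CPM and 26.5, 16.7 and 26.5 CPM (log2 fold change 2.05 ± 0.33 SE, adjusted p = 0.000591). None of these overlapped between the groups. The steps differed in size: Cxcl2 was at -0.04 with the drug alone and 1.94 with IC alone, while Ccl7 was at 1.48 and 0.98. Cxcl16, a membrane-bound chemokine, fell by 0.74 and was the 1 member lower, against 3 with mouse as a block and 2 without baseline C.

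**Figure D3:**
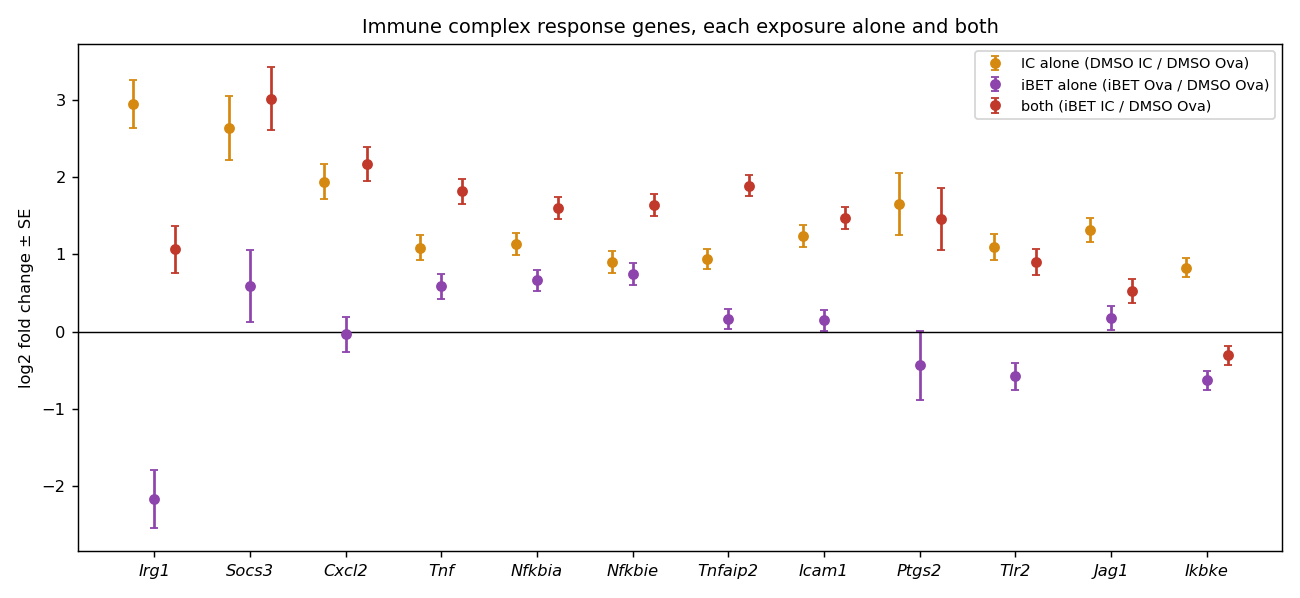
For 12 genes linked to the IC response, points give the log2 fold change over DMSO Ova with IC alone (DMSO IC), the drug alone (iBET Ova) and both (iBET IC), and bars give the standard error from the edgeR fit. Tnf, Nfkbia, Nfkbie and Tnfaip2 are higher with both exposures than with either, while Irg1, Jag1 and Ikbke with both lie below their level with IC alone. The 3 sets of points share the DMSO Ova libraries.

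Proximal promoters of 4 of these genes are shown because their combined level exceeded both single exposures (Tnf, Nfkbia and Nfkbie) or because the gene rose with IC and was not called with the drug alone (Cxcl2). They lie at chr5:90903749-90903898 (plus strand) for Cxcl2, chr12:55492648-55492797 (minus) for Nfkbia, chr17:45555550-45555699 (plus) for Nfkbie and chr17:35202008-35202157 (minus) for Tnf.
Cxcl2: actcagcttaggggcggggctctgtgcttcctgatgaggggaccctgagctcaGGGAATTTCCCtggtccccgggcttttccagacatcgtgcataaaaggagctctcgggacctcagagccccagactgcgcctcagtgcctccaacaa
Nfkbia: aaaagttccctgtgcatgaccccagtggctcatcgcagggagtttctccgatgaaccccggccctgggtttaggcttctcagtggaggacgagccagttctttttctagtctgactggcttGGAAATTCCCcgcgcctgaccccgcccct
Nfkbie: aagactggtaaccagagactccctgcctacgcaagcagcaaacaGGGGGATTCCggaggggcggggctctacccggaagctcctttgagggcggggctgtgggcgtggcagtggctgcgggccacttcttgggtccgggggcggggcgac
Tnf: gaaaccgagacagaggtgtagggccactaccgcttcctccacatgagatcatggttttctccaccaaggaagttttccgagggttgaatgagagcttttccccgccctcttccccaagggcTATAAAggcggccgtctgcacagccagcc
The capitals are kappaB matches in Cxcl2 (2 overlapping ones), Nfkbia and Nfkbie, and a TATA box in Tnf, whose window of 300 bases held no kappaB match. Positions are given from the RefSeq start and were not compared with any binding data.

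The immediate early genes parted into members above and below baseline. Of 31 tested, 16 rose (51.6%, against 18.6% of all genes) and 5 fell (16.1%, near the 15.8% of all genes), with a median of 0.50, and leaving out single libraries gave 14 to 16 and 4 to 6. Besides Ier3 and Egr1, Ier2 rose from 13.9, 10.7 and 8.54 CPM to 44.5, 47.4 and 39.4 CPM (log2 fold change 2.07 ± 0.17 SE, adjusted p = 2.97e-06). Egr2, which shares the zinc finger domain of Egr1, fell from 20.5, 18.8 and 9.37 CPM to 3.2, 2.91 and 1.68 CPM (log2 fold change -2.54 ± 0.41 SE, adjusted p = 0.000582). The AP-1 subunit gene Fos was at 292, 338 and 269 CPM and 153, 138 and 96.6 CPM (log2 fold change -1.21 ± 0.22 SE, adjusted p = 0.00121). Fosl1, another Fos family member, fell by 1.38. Egr1 and Egr2 thus ended on opposite sides of baseline, without overlap between groups in either gene.

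Among 22 inhibitors of cytokine and kinase signalling, 6 rose (27.3%, against 18.6% of all genes) and 5 fell (22.7%, against 15.8%), with a median of 0.21. Without baseline B 3 were lower. Dusp6, the phosphatase of ERK kinases, was at 56, 59.9 and 59.5 CPM at baseline and 151, 144 and 160 CPM in iBET IC (log2 fold change 1.37 ± 0.12 SE, adjusted p = 3.96e-06). Socs7 rose by 1.18 and Socs5 fell by 1.01. Rgs2, which shortens signalling by Gq proteins, was at 344, 393 and 339 CPM and 172, 155 and 133 CPM (log2 fold change -1.23 ± 0.13 SE, adjusted p = 1.92e-05). It had fallen by 0.42 with the drug alone and fell by a further 0.81 when IC was added to the drug (adjusted p = 0.0118). Rgs2 was 1 of the 4 genes called lower in that step.

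Receptors that steer migration were mostly below baseline. Of 18 tested chemotactic and migratory receptors, 13 fell (72.2%, against 15.8% of all genes), 2 rose (11.1%, against 18.6%) and none was held within 1.5-fold, with a median of -1.50. Leaving out single libraries gave 10 to 14 lower and 2 higher each time. Alongside Gpr183, Ccr2 and Cx3cr1, the members that rose were P2ry2, a nucleotide receptor, at 12.8, 11.9 and 10 CPM and 27.3, 29.1 and 22.9 CPM (log2 fold change 1.22 ± 0.17 SE, adjusted p = 0.000189), and C5ar1, the receptor for complement C5a, at 334, 411 and 404 CPM and 693, 704 and 648 CPM (log2 fold change 0.83 ± 0.14 SE, adjusted p = 0.000608). In both genes the groups were separate.

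Toll-like receptors and their adaptors fell in larger number than they rose. Of 24 tested, 12 fell (50%, against 15.8% of all genes), with a median of -0.73. The 4 that rose (16.7%) and the 6 held within 1.5-fold (25%) were shares near those of all genes (18.6% and 28.3%), and leaving out single libraries gave 12 to 13 lower. Tlr4, the lipopolysaccharide receptor, was at 125, 109 and 117 CPM at baseline and 28.5, 28.1 and 27.6 CPM in iBET IC (log2 fold change -2.05 ± 0.11 SE, adjusted p = 2.14e-07). Tlr13, an endosomal receptor for bacterial ribosomal RNA, was at 283, 382 and 323 CPM and 71.4, 66.5 and 61.6 CPM (log2 fold change -2.31 ± 0.18 SE, adjusted p = 2.21e-06). Ly96, the Tlr4 coreceptor, fell by 2.34. Tlr2, the lipoprotein receptor, went the other way, from 45.2, 35.3 and 51.7 CPM to 75.6, 82.7 and 89.2 CPM (log2 fold change 0.91 ± 0.17 SE, adjusted p = 0.00134). It had fallen by 0.58 with the drug alone and rose by 1.49 when IC was added to the drug (adjusted p = 0.00157). Cd14 and Tollip, a coreceptor and a dampening adaptor, rose by 0.80 and 0.98.

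The Fc gamma receptor genes that detect the stimulus showed differences that were small or, in the main fit without pairing by mouse, unresolved. Fcgr3, the low-affinity activating receptor, was at 305, 273 and 269 CPM at baseline and 198, 143 and 177 CPM in iBET IC (log2 fold change -0.71 ± 0.13 SE, adjusted p = 0.00115). The high-affinity receptor Fcgr1 was at 178, 187 and 128 CPM and 147, 93.6 and 79 CPM (log2 fold change -0.62 ± 0.28 SE, adjusted p = 0.107), with overlapping groups. With mouse as a block the difference in Fcgr1 was called (adjusted p = 0.000653). The inhibitory receptor Fcgr2b was at 20, 13.7 and 16.1 CPM and 10.8, 10.8 and 12.1 CPM (log2 fold change -0.53 ± 0.19 SE, adjusted p = 0.0535), with groups that did not overlap. A call was gained in 7 of 8 other settings, in DESeq2 among them. Fcer1g, the signalling chain, had an interval within 1.5-fold of baseline (log2 fold change -0.06) in the fit of all 12 libraries, and no longer without combined B or combined C. Fcgr4 was at 0.09 with a wide error of 0.41. These receptor genes are close in sequence and could share reads.

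Downstream of the receptors, 17 of 38 tested receptor, kinase, phosphatase and adaptor genes fell (44.7%, against 15.8% of all genes) and 3 rose (7.89%, against 18.6%), with a median of -0.44. Leaving out single libraries gave 16 to 19 lower. With the 4 libraries of mouse B left out 7 were lower. Beside Sla, the Src family kinase gene Fgr was at 9.76, 13.8 and 13.1 CPM at baseline and 1.92, 3.2 and 2.04 CPM in iBET IC (log2 fold change -2.41 ± 0.26 SE, adjusted p = 2.38e-05). Inppl1, a lipid phosphatase that opposes PI3-kinase signals, was at 153, 211 and 192 CPM and 76.6, 77.4 and 70.4 CPM (log2 fold change -1.32 ± 0.13 SE, adjusted p = 1.53e-05). Both genes had separate groups. Cbl, a ubiquitin ligase that ends receptor signalling, rose by 0.46. The other 2 rises were Ptpn11 (0.44) and Lyn (0.25), and each was lost in 5 or more of the 12 fits without 1 library (adjusted p up to 0.137 and 0.164), baseline B and C and combined B and C among them.

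Interferon-stimulated genes fell more often than they rose. Of 43 tested, 23 fell (53.5%, against 15.8% of all genes), 1 rose (2.33%, against 18.6%) and 6 were held within 1.5-fold (14%, against 28.3%), with a median of -0.66. Leaving out single libraries gave 19 to 25 lower, leaving out mouse B gave 12, and mouse as a block gave 28 lower, 2 higher and 11 held. Ifit3, an antiviral effector, was at 147, 78 and 79 CPM at baseline and 24.6, 11.1 and 10.7 CPM in iBET IC (log2 fold change -2.65 ± 0.48 SE, adjusted p = 0.00164). Its near-identical copy Ifit3b had a log2 fold change of -2.67, and reads could be split between them. Rtp4, a transporter chaperone induced by interferon, was at 64.2, 108 and 104 CPM and 33.2, 20.3 and 24.4 CPM (log2 fold change -1.84 ± 0.23 SE, adjusted p = 0.0001). The gene that rose was Stat2, a subunit of the factor that activates this set, from 64.2, 65.6 and 66.7 CPM to 105, 104 and 104 CPM (log2 fold change 0.67 ± 0.09 SE, adjusted p = 0.000113). Neither Ifit3 nor Stat2 overlapped between groups.

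Genes of the drug's own target pathway rose more often than they fell. Of 26 tested genes for BET proteins, P-TEFb and its regulators, 10 were higher (38.5%, against 18.6% of all genes), 1 was lower (3.85%, against 15.8%) and 9 were held within 1.5-fold (34.6%, against 28.3%), with a median of 0.14. Single libraries left out gave 9 to 10 higher and 0 to 3 lower. Brd2, a BET protein, was at 349, 294 and 247 CPM at baseline and 1720, 1700 and 1700 CPM in iBET IC (log2 fold change 2.53 ± 0.13 SE, adjusted p = 1.64e-07). Hexim1, the P-TEFb inhibitor, was at 39.5, 34.6 and 26.4 CPM and 168, 138 and 138 CPM (log2 fold change 2.17 ± 0.18 SE, adjusted p = 3.06e-06). Mllt3, a subunit of the super elongation complex, rose by 1.33. All iBET IC libraries were above all baseline libraries in these 3 genes. Brd3, another BET protein, was at 68.8, 40.5 and 43.6 CPM and 36.1, 29.5 and 25.4 CPM (log2 fold change -0.70 ± 0.25 SE, adjusted p = 0.0445). Leaving out any of 7 of the 12 libraries lost that call, baseline A and baseline C among them.

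Myc itself was below baseline, and the share of its network called lower was near that of all genes. Myc was at 64.7, 61.5 and 65.7 CPM at baseline and 23.7, 27.4 and 14.5 CPM in iBET IC (log2 fold change -1.54 ± 0.23 SE, adjusted p = 0.000409). Its mean was 106 CPM with IC alone and 19.3 CPM with the drug alone. Mxd1, which competes with Myc for its partner Max, was at 9.76, 9.05 and 9.95 CPM and 35.9, 36.5 and 39 CPM (log2 fold change 1.96 ± 0.11 SE, adjusted p = 2.64e-07). The groups of Myc and of Mxd1 did not overlap. Of 51 tested network and nucleolar genes, 9 fell (17.6%, near the 15.8% of all genes), 6 rose (11.8%, against 18.6%) and 19 were held within 1.5-fold (37.3%, against 28.3%), with a median of -0.13. With mouse as a block 14 fell, and 4 rose without baseline B or combined B. Gar1, a subunit of the ribonucleoproteins that guide pseudouridylation, fell by 1.54 and Bop1, a ribosome assembly factor, rose by 0.49.

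Cell cycle genes had a low median and, in the main fit without pairing by mouse, wide errors. Of 52 tested, 18 fell (34.6%, against 15.8% of all genes), 3 rose (5.77%, against 18.6%) and 29 were unresolved, with a median of -0.99. This count turned on single libraries and on the model: 6 fell without baseline C, 6 without combined A and 8 without combined B, and 40 fell with mouse as a block. E2f2, an activator of S-phase genes, was at 17.5, 17.3 and 32 CPM at baseline and 2.78, 3.59 and 5.27 CPM in iBET IC (log2 fold change -2.59 ± 0.43 SE, adjusted p = 0.000783). Cdkn1a, an inhibitor of cyclin-dependent kinases, was at 105, 165 and 133 CPM and 397, 416 and 366 CPM (log2 fold change 1.54 ± 0.19 SE, adjusted p = 6.7e-05). Ccnd2, a D-type cyclin, was at 41.6, 40.7 and 60.4 CPM and 84.6, 86.1 and 99.4 CPM (log2 fold change 0.90 ± 0.19 SE, adjusted p = 0.00255). In each mouse E2f2 was lower and Cdkn1a and Ccnd2 were higher in iBET IC than at baseline. Ccne2 fell by 1.54.

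Metal and oxidative stress genes rose in a larger share than genes in general. Of 32 tested, 17 rose (53.1%, against 18.6% of all genes), 2 fell (6.25%, against 15.8%) and 9 were held within 1.5-fold (28.1%, near the 28.3% of all genes), with a median of 0.44, and single libraries left out gave 15 to 18 higher. Mt1 was at 25.2, 32.1 and 31.7 CPM at baseline and 208, 135 and 181 CPM in iBET IC (log2 fold change 2.53 ± 0.16 SE, adjusted p = 6.07e-07). Srxn1, which reactivates oxidised peroxiredoxins, was at 131, 173 and 168 CPM and 414, 584 and 640 CPM (log2 fold change 1.79 ± 0.21 SE, adjusted p = 5.65e-05). The groups of Mt1 and Srxn1 were separate. The 2 members that fell were Keap1 (-0.53), the repressor of the oxidative stress factor Nrf2, and Slc39a10 (-0.88), a zinc importer.

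Lysosomal genes were often held near baseline, in a list not matched to all genes in count. Of 52 tested, 25 were held within 1.5-fold (48.1%, against 28.3% of all genes), 16 rose (30.8%, against 18.6%) and 2 fell (3.85%, against 15.8%), with a median of 0.21. Without mouse B 9 were held. The number that rose was 7 without baseline A, 9 without baseline C and 9 without combined A. The 2 that fell were both transcription factors of lysosomal genes. Mitf was at 142, 117 and 103 CPM at baseline and 43, 43.9 and 42.9 CPM in iBET IC (log2 fold change -1.47 ± 0.12 SE, adjusted p = 3.16e-06). Tfeb was at 28.2, 32.3 and 25.3 CPM and 13.9, 14 and 11.5 CPM (log2 fold change -1.12 ± 0.15 SE, adjusted p = 0.000116). In both, all combined libraries were below all baseline libraries. Neu1, a sialidase, rose from 40.6, 43.2 and 41 CPM to 82.7, 93.1 and 79.2 CPM (log2 fold change 1.03 ± 0.12 SE, adjusted p = 3.93e-05), Atp6v0c, the proteolipid of the proton pump, rose by 0.82, and Mcoln1, a calcium channel, by 0.70.

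Macrophage lineage regulators were split. Of 44 tested lineage and growth factor genes, 15 rose (34.1%, against 18.6% of all genes) and 9 fell (20.5%, against 15.8%), with a median of -0.11. The 15 became 10 without baseline B or baseline C and 9 without combined A, and 18 fell with mouse as a block. Spi1, which encodes the myeloid master factor PU.1, was at 165, 214 and 196 CPM at baseline and 73.2, 78.7 and 63.3 CPM in iBET IC (log2 fold change -1.42 ± 0.12 SE, adjusted p = 3.06e-06). Zeb2, a repressor that maintains macrophage identity, was at 1330, 839 and 796 CPM and 445, 384 and 335 CPM (log2 fold change -1.35 ± 0.21 SE, adjusted p = 0.000445). Id1, an inhibitor of helix-loop-helix factors, was at 11.8, 15.8 and 8.46 CPM and 41.5, 35.3 and 23.6 CPM (log2 fold change 1.48 ± 0.27 SE, adjusted p = 0.00137). The groups were separate for each. Ets2 and Il4ra rose by 1.17 and 1.06, and Tal1 fell by 1.35.

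Nuclear receptors included members at both extremes. Of 28 tested genes of lipid efflux and nuclear receptors, 5 rose (17.9%, near the 18.6% of all genes) and 8 fell (28.6%, against 15.8%), with a median of -0.16. Without baseline B 5 fell, and 3 rose without baseline C, drug-only B, combined A or combined B. Pparg, a lipid sensor of alternatively activated macrophages, was at 75.5, 67.2 and 56.5 CPM at baseline and 17.7, 12.8 and 10.8 CPM in iBET IC (log2 fold change -2.24 ± 0.21 SE, adjusted p = 1.2e-05). Vdr, the vitamin D receptor, was at 1.54, 1.23 and 0.746 CPM and 8.17, 7.65 and 8.99 CPM (log2 fold change 2.96 ± 0.31 SE, adjusted p = 2.39e-05). Ppard, a fatty acid sensor, was at 4.11, 4.75 and 2.9 CPM and 10.9, 11.8 and 11 CPM (log2 fold change 1.53 ± 0.20 SE, adjusted p = 0.000127). Pparg and Ppard thus lay on opposite sides of baseline without overlap between groups. Rarg fell by 1.60 and Nr1h3, the LXR alpha gene, by 1.21, the latter with the call lost without baseline B.

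In lipid synthesis, 8 of 38 tested genes rose (21.1%) and 5 fell (13.2%), shares near the 18.6% and 15.8% of all genes, with a median of 0.11. In this list 8 fell without baseline A, while 13 rose with mouse as a block. Acsl3, which activates fatty acids at lipid droplets, was at 20, 15.3 and 18.2 CPM at baseline and 44.8, 42.3 and 40 CPM in iBET IC (log2 fold change 1.28 ± 0.13 SE, adjusted p = 2.28e-05). Elovl6, an elongase of saturated fatty acids, was at 13.4, 12.7 and 9.62 CPM and 4.32, 5.14 and 3.96 CPM (log2 fold change -1.38 ± 0.19 SE, adjusted p = 0.000164). The elongase Elovl5 rose by 0.74 and the desaturase Scd2 fell by 0.89, and Cpt1a, the entry enzyme of mitochondrial fatty acid oxidation, rose by 0.74. The 2 elongases moved in opposite directions, each with separate groups.

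Actin and uptake genes were held near baseline in a larger share than genes in general, in lists not matched to all genes in count. Of 61 tested actin and adhesion genes, 28 were held within 1.5-fold (45.9%, against 28.3% of all genes), and the 13 that rose (21.3%) and 10 that fell (16.4%) were shares near those of all genes (18.6% and 15.8%), with a median of 0.07. Without mouse B 16 were held. Of 31 scavenger and apoptotic cell receptors, 14 were held (45.2%), 2 rose (6.45%) and 4 fell (12.9%), with a median of 0.04. With mouse as a block 4 of these receptors rose and 7 fell, and 2 fell without baseline B or combined C. The number that rose was 1 without baseline C or combined A and 3 without baseline B or combined C. Icam1, the integrin ligand, was at 75, 93.2 and 95.8 CPM at baseline and 245, 227 and 267 CPM in iBET IC (log2 fold change 1.47 ± 0.14 SE, adjusted p = 1.23e-05). Vcl, which links integrins to actin, was at 64.2, 62.7 and 73.4 CPM and 174, 173 and 192 CPM (log2 fold change 1.42 ± 0.11 SE, adjusted p = 2.64e-06). Fmnl1, a formin of myeloid cells, was at 258, 316 and 343 CPM and 85.8, 90.7 and 98.2 CPM (log2 fold change -1.74 ± 0.13 SE, adjusted p = 1.87e-06). The groups were separate in these 3 genes. Icam1 was raised by IC alone (1.24) and not called with the drug alone (0.14), whereas Vcl was raised by the drug alone (1.21) and not called with IC alone (0.02). Msr1, a scavenger receptor, and Cd300a, an inhibitory lipid receptor, fell by 0.77 and 0.91.

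Of 33 apoptosis genes, 10 rose (30.3%, against 18.6% of all genes), 9 fell (27.3%, against 15.8%) and 13 were held within 1.5-fold (39.4%, against 28.3%), with a median of 0.13. The 9 became 5 without baseline B and 6 without combined A, and the 13 became 7 without baseline B and 6 without baseline C, combined B or combined C. Pmaip1, the BH3-only protein Noxa, was at 11.3, 11.7 and 13.1 CPM at baseline and 34.5, 28 and 35.1 CPM in iBET IC (log2 fold change 1.42 ± 0.15 SE, adjusted p = 2.52e-05). Bmf, another BH3-only gene, was at 8.22, 11.8 and 7.79 CPM and 2.24, 2.91 and 2.28 CPM (log2 fold change -1.94 ± 0.26 SE, adjusted p = 0.00015). Ripk3, a necroptosis kinase, rose by 0.99, and Casp8, which restrains it, fell by 0.74. Of 13 antigen presentation and costimulation genes, 2 rose and 2 fell (15.4% each, against 18.6% and 15.8% of all genes) and 9 were unresolved. A single member fell without combined A or combined C. Cd40, the receptor for T cell help, was at 11.8, 7.28 and 5.89 CPM and 29.4, 24.7 and 25.2 CPM (log2 fold change 1.81 ± 0.23 SE, adjusted p = 8.18e-05). Cd274, the ligand of PD-1, was at 15.4, 13 and 12.7 CPM and 8.43, 9.5 and 8.03 CPM (log2 fold change -0.63 ± 0.19 SE, adjusted p = 0.0208), a call lost without combined A or combined C. IC alone had raised Cd274 by 1.04.

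**Figure D4:**
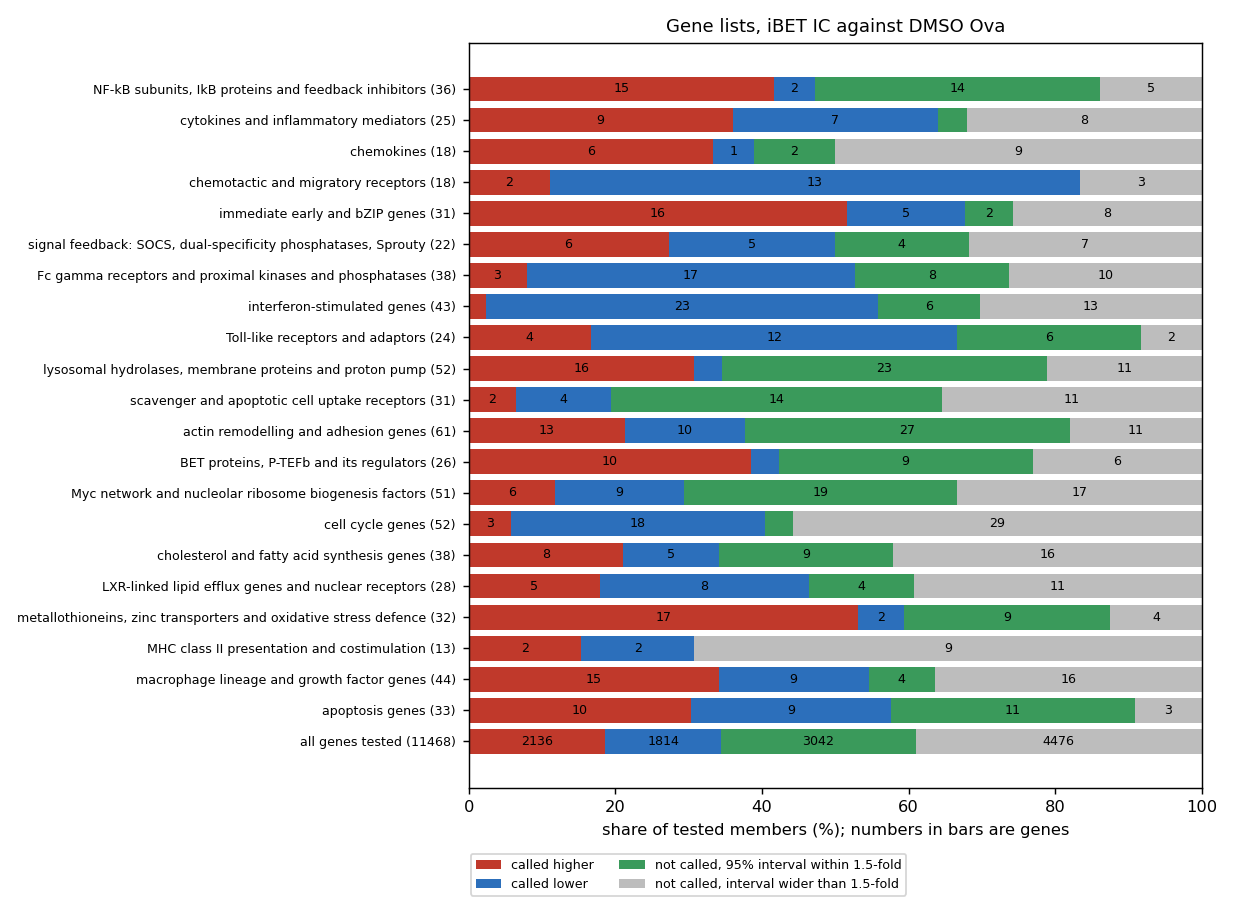
Bars show the share of tested members of 21 gene lists, and of all 11468 genes, that were called higher (red), called lower (blue), not called with an interval within 1.5-fold (green) or not called with a wider interval (grey) in iBET IC against DMSO Ova, with the number of genes in each part. The migratory receptor list has 13 of 18 members lower, and the metallothionein and oxidative stress list has 17 of 32 higher.

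Genes at baseline with both exposures included some that differed from it with 1 exposure alone. The steps of a path compare parallel cultures and are not a course in time. Going from DMSO Ova through iBET Ova to iBET IC, 16 genes were called in opposite directions by the 2 steps, and 4 of these (Tnip3, Mllt6, Rere and Rassf4) were held within 1.5-fold of baseline at the end. By way of DMSO IC, 72 genes were called in opposite directions and 28 were held. The intermediate group enters the 2 steps of a path with opposite signs, so that its sampling error alone favours opposed steps, and the counts are descriptions.

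Tnip3, an inhibitor of NF-kB signalling, was at 273, 234 and 239 CPM at baseline, 97.2, 103 and 117 CPM with the drug alone and 228, 240 and 211 CPM with both. The drug lowered it by 1.23 (adjusted p = 1.3e-05) and IC in drug-treated cells raised it by 1.10 (adjusted p = 0.00118). The combined and baseline libraries overlapped, at a log2 fold change of -0.13. Mllt6, a chromatin protein known as a fusion partner in leukaemia, followed the same course, at 58, 61.1 and 55.3 CPM, 38.5, 33 and 31.3 CPM and 69, 75.3 and 60.9 CPM in the same 3 groups, with steps of -0.76 and 1.00. Rere, a transcriptional corepressor, took the opposite course with smaller steps of 0.35 and -0.56, and its bounded difference became a call without baseline A (-0.31, adjusted p = 0.0437).

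By way of IC, Ikbke, an IkB kinase-related gene of the antiviral response, was at 28.8, 36.8 and 41.4 CPM at baseline, 60, 67.6 and 66.1 CPM with IC alone and 29.6, 31.2 and 27.2 CPM with both. Ikbke was higher by 0.83 with IC alone than at baseline, and lower by 1.14 with both than with IC alone. Against baseline it stood at -0.31 with both (adjusted p = 0.0756). Without baseline A it was called lower at -0.45 (adjusted p = 0.01). It was also called lower without IC-only A, without mouse A, in DESeq2 and with 1 surrogate variable. Il1rn, the interleukin-1 receptor antagonist, was at 152, 155 and 135 CPM, 318, 242 and 240 CPM and 141, 115 and 134 CPM in the same order of groups, with steps of 0.86 and -1.04. Klhl24, a ubiquitin ligase adaptor, was the mirror image, with 60.1, 53.9 and 50.3 CPM, 19.8, 23.7 and 20.2 CPM and 51.1, 63.6 and 60.6 CPM and steps of -1.36 and 1.46. In each of these 3 genes the combined libraries overlapped the baseline and stood clear of IC alone. Adgrl2 and Rrp9 had steps of 0.86 and -0.98, and of 0.85 and -0.81. Jag1, a Notch ligand raised by IC alone by 1.31, was lower by 0.78 with both exposures than with IC alone. It still lay above baseline at 0.53 (adjusted p = 0.0195), a call lost without baseline C or combined B.

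**Figure D5:**
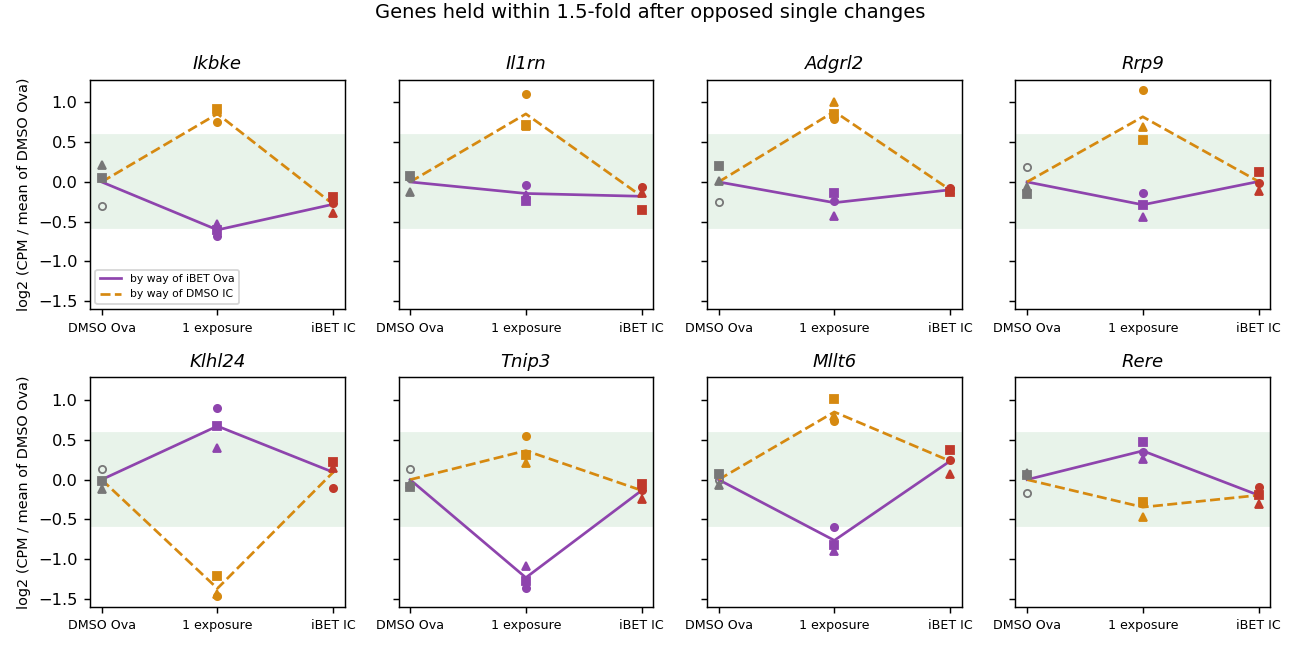
For 8 genes held within 1.5-fold, the vertical axis is log2 of each library's CPM over the mean of DMSO Ova, and the horizontal axis runs from DMSO Ova through 1 exposure to iBET IC. Solid lines join group means by way of iBET Ova and dashed lines by way of DMSO IC, points are libraries shaped by mouse, and the green band is 1.5-fold either way. Ikbke, Il1rn, Adgrl2 and Rrp9 rise with IC, Klhl24 falls, Tnip3 and Mllt6 fall with the drug, and each ends inside the band.

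The promoter of Tnip3 (chr6:65590248-65590397, plus strand) is shown as that of a gene lower with the drug alone and near baseline with both exposures. That of Kctd12 (chr14:102982638-102982787, minus strand) is shown as that of the abundant gene with the steepest drug-linked rise among those named.
Tnip3: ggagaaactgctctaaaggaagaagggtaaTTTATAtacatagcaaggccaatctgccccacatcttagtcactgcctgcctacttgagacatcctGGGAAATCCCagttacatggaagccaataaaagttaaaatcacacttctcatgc
Kctd12: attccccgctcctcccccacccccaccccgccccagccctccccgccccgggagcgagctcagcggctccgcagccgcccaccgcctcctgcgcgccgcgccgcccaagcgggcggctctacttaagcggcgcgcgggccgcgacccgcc
Tnip3 held a TATA box match on the opposite strand and a kappaB match 54 bases before the start, and its 300-base window also held a PU.1 match. Kctd12 held none of the 6 motifs. The promoter source was the same RefSeq table, and these letters were not compared with binding data.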

How the data were processed

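RNA-seq libraries of bone marrow-derived macrophages, which the labels call sorted into lysis buffer and the study's methods do not, were analysed from 12 libraries in 4 groups of 3, with group and mouse taken from the labels. The authors deposited a table of raw counts per gene symbol, made by trimming with Trim Galore, aligning to mm10 with HISAT2 and counting with featureCounts in Rsubread. Annotation, strand setting and the handling of reads with several alignments are not given in the sources used here. A table of library-scaled values by the same authors was not used, and 0 columns of the count table were left out.

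Counts were analysed in R 4.3.3 with edgeR 4.0.16: filterByExpr (minimum count 10, minimum total 15), TMM factors and a quasi-likelihood fit of all 12 libraries with 1 term per group. The contrast was iBET IC minus DMSO Ova, two-sided, with Benjamini-Hochberg adjustment over 11468 genes, and calls were made at an adjusted p under 0.05. A gene was held within 1.5-fold where its 95% interval (t quantile times SE) lay within 0.585 either way on the log2 scale. The median interval extended 0.40 to each side, which sets the precision. The procedure was tested on simulated data.

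The members and lists were chosen with earlier results of these data known. Named genes were the 10 largest rises and 10 largest falls among called genes (mean count 50 or more, 1 direction in all 3 mice). The 3 largest called rises and falls of each list were added at the same mean count. So were a panel (Fc receptors, BET-related genes, genes singled out by the study and Rn45s), and up to 5 genes per path that ended within 1.5-fold. A few genes selected in this way are not reported here. Others are marked as chosen after their values were seen.

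Mice pair the libraries, since each gave 1 library to each group. Deviations from group means correlated between same-mouse libraries with a median of 0.263 over 18 pairs (range -0.07 to 0.54), against -0.134 over 36 pairs of other mice. Taking deviations from group means pushes the second median below 0 when the first is above it, so the 2 are not separate evidence. The mice are separate animals. Alternatives were DESeq2 1.42.0, its size factors in edgeR, 2 other filters, mouse as a block, 1 surrogate variable (sva 3.50.0), the 6 compared libraries alone, Rn45s removed, each library or mouse left out, stricter thresholds and a 2-fold bound. Symbols were matched to the annotation for 99.1% of genes tested. Promoter windows came from RefSeq (GRCm38.p6) and were found for 79.9% of genes, under the 80% needed for a comparison of motif shares between classes, which was therefore void.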

Additional observations from a re-analysis of the deposited data

How the results depend on the processing

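Calls were 2136 higher and 1814 lower, with 3247 genes held within 1.5-fold. Leaving out 1 library or 1 mouse gave 813 to 2236 higher, 702 to 2172 lower and 1529 to 3699 held. The low ends came without mouse B (813, 702 and 1529), and without mouse C the numbers were 1245, 1126 and 1890, the cause of which was not tested beyond the smaller number of libraries. At an adjusted p under 0.01 there were 1325 and 1060 calls, at 2-fold or more 559 and 813, and a bound of 2-fold held 7004 genes. With mouse as a block the numbers were 2532, 2316 and 3693. The block gained calls for Fcgr1, Fcgr2b and Rassf4, lost that of Rn45s and changed no other call among the named genes. The other settings stayed within 1.5 times of the reported counts, and 3272 of 3950 calls were kept without baseline A. Among 127 called named genes, 105 were kept in the 12 fits without 1 library, 86 in the 3 fits without 1 mouse and 118 in 8 other settings. Signs turned only in genes near 0 and in Rn45s. Fcer1g (-0.06) was at 0.01 with a surrogate variable and at -0.32 to 0.09 with libraries or mice left out, above 0 without combined B or C or mouse B or C. Fcgr4 (0.09) was at -0.01 in DESeq2, -0.06 with the block and -0.25 to 0.30 with libraries or mice left out, below 0 without baseline C, combined A or mouse A. Adgrl2 (-0.12) was at 0.01 without mouse B, and Rrp9 (0.04) at -0.10 to 0.12 over such fits, below 0 without baseline B, combined B or mouse B. Rn45s (-4.94) was at 0.21 with a surrogate variable and -5.65 to 1.04 over fits with libraries or mice left out, above 0 without baseline A (0.84) or mouse A (1.04). The 1768133 counts outside Rn45s in baseline A limit what can be seen of low genes at baseline.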

Other observations

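Called and held genes had a longer median span than the remaining genes. The median annotated gene span was 29.7 kb for genes called higher in iBET IC, 28.6 kb for genes called lower and 28.1 kb for genes held within 1.5-fold, against 16.0 kb for the 4476 genes neither called nor held and 23.0 kb over all genes tested. Median exonic length ran the same way, at 5.21, 4.94 and 4.96 kb for the first 3 classes, against 3.59 kb for the 4476 genes. The median mean count was 413.4 for genes called higher and 202.2 for genes called lower. Span was not separated from exonic length or count. Median exonic GC content was 49.95% for genes called higher and 48.05% for genes called lower, against 49.36% over all. Called genes at 2-fold or more had lower counts than genes in general, with a median mean count of 144.1 for the higher and 73.5 for the lower ones, against 255.9 over all genes, 537.8 for genes held within 1.5-fold and 105.4 for genes neither called nor held. These are descriptions of the classes and were not tested, and a low count widens the interval that the bound has to contain.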
